A study of Mus musculus with 96 samples.

Results

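Mouse intestinal adenoma organoids that carry an Apc mutation together with a null Bmal1 genotype were followed for 1 day after a synchronizing pulse. All libraries labelled APCmin/-;BMAL1-/- in the expression tables were taken, 22 of the 88 libraries the tables hold over 4 genotypes, and ordered by collection time. Organoids are self-organising epithelial cultures, here from C57BL/6 mice, and the genotype is called Apc-min Bmal1-null below. The cultures received 0.1 µM dexamethasone for 1 h and fresh medium after it; this synthetic glucocorticoid is used to set the clocks of cultured cells together. RNA was collected every 2 h from 24 to 46 h, at 12 time points, with 2 libraries at a time point except at 34 and 46 h, where the tables hold 1. The genotypes set against them, with 22 libraries each and the same strain and treatment, are Apc-min (APCmin/-;BMAL1+/+), Bmal1-null (APC+/+;BMAL1-/-) and control organoids (APC+/+;BMAL1+/+). Both Apc-min genotypes are labelled as adenoma organoids and were kept in EN medium. The medium of the other genotypes was ENR, where R-spondin, which strengthens Wnt signalling, is added. Each genotype had 2 organoid lines, and since no label ties a library to its line, p-values measure only the spread between these libraries. Hours after dexamethasone are also hours after the change of medium, and these cannot be told apart.

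Bmal1 (gene symbol Arntl) pairs with Clock or Npas2 on E-boxes, short DNA elements with the sequence CACGTG, and drives the Per, Cry and Nr1d genes, whose products feed back on that drive. Apc is part of the complex that marks beta-catenin for destruction, and its loss leaves Wnt target genes on, which keeps intestinal crypt cells dividing and starts adenomas. In crypts, Wnt and Notch signals set the balance between stem cells, Paneth and goblet cells and absorptive enterocytes. A cell that runs short of oxygen turns on glycolytic genes through HIF, and one that runs short of amino acids turns on a different set through ATF4.

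Between 32.9 and 48.1 M reads mapped uniquely in each of the 22 libraries. Epithelial markers were high, with Epcam at 482 to 685 TPM (transcripts scaled to a fixed library total), a unit that corrects for depth and gene length. Markers of single cell types ran from near 0 to high: the goblet mucin Muc2 reached at most 0.43 TPM, while the goblet peptide Tff3 held a median of 249.6 TPM. The enterocyte enzyme Sis reached at most 0.12 TPM, while the enterocyte gene Fabp2 held a median of 42.3 TPM. Of the stem cell markers Olfm4 reached at most 0.1 TPM, while Ascl2 held a median of 90.8 TPM. The fibroblast gene Col3a1 was at 0 in 20 of 22 libraries, and Dcn, the macrophage gene Adgre1 and the endothelial gene Kdr were at 0 in 21 of 22 each. Other markers of such cells were detected. The endothelial gene Cdh5 had a median of 1.37 TPM and reached 18.5 TPM, in the 28 h replicate 1 library. Pecam1, also endothelial, was at 0 in only 2 libraries but reached at most 0.22 TPM. The smooth muscle gene Acta2 ran from 2.06 to 19.4 TPM. The share of TPM from mitochondrially encoded genes was 1.65, 1.93 and 2.07% (lowest, median, highest) at 40 to 46 h, against 1.06, 1.28 and 1.89% at 24 to 30 h (2-sided exact permutation test of the means, p = 0.0106, n = 7 and 8). The slope of log2 TPM on gene length, a sign of RNA quality, was -0.559, -0.488 and -0.400 at 40 to 46 h, against -0.612, -0.455 and -0.420 at 24 to 30 h (2-sided exact permutation p = 0.915). The library of 32 h replicate 2 stood apart, with a slope of -0.772 and 7438 genes below every other library. It lies between the early and late windows compared here, and enters through the spread. The 28 h replicate 2 library, which is in the early window, had the next lowest slope, at -0.612. Its median absolute log2 distance from the other libraries was 0.315, against 0.608 for 32 h replicate 2. Only 28 h replicate 1 lay about as far off, at 0.332, with at most 0.186 in the rest. The part of the mitochondrial share in the differences below was not tested.

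The library of 28 h replicate 1 did not match its Bmal1 label, and results are given with and without it. Arntl stood at 14.7 TPM there, against 2.00 to 6.22 TPM in the other 21 libraries, and at 7.20 to 17.3 TPM in Apc-min organoids without their own 28 h replicate 1 library, which is doubted too because its Arntl lay below this range. Nr1d1, the E-box target that encodes REV-ERB alpha, was at 12.02 TPM in it, against 1.81 to 5.86 TPM in the other 21 libraries, and at 5.40 to 19.3 TPM in Apc-min organoids. The repressor Cry1 ran the other way, with 19.3 TPM in the doubted library, against 26.1 to 62.4 TPM in the other 21 and 10.5 to 23.2 TPM in Apc-min organoids. For these genes the library fell within the Apc-min range and outside the range of its own genotype. It also held the highest value of the genotype in 3929 genes. Because it is 1 of the 8 early libraries, it enters every comparison below.

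Between 24 to 30 h and 40 to 46 h the Apc-min Bmal1-null organoids changed in several gene groups at once. Genes of glycolysis and the hypoxia response, of the amino acid response, of stem and Paneth cells and of the absorptive surface were among those that rose, and keratins, annexins and S100a genes were among those that fell. With all 22 libraries, 430 of 12206 tested genes rose (3.52%) and 283 fell (2.32%) at an adjusted p under 0.05 in limma, with a median log2 difference of 0.022 over all genes. Without the doubted library 1109 of 12126 rose (9.15%) and 516 fell (4.26%), with a median of 0.037. Leaving out the 32 h replicate 2 library instead gave 1288 calls, 814 higher and 474 lower. Leaving out only the early 28 h replicate 2 library gave 682 calls, 368 higher and 314 lower, with a median of -0.0062. The balance of directions depended on the scaling: after median-of-ratios scaling 587 genes were higher and 556 lower, and in the authors' quantile-normalized values 657 were higher and 599 lower. Values are given as the lowest, median and highest TPM of a window, and differences as late minus early on the log2(TPM + 1) scale with their standard error. The early values printed are those of the 7 early libraries other than the doubted one, whose value follows where it lies apart. Windows that did not overlap made up 2.74% of all genes with the doubted library and 8.47% without it. In bulk RNA, fewer cells of a type and less RNA per cell cannot be told apart.

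Clock genes were measured in a genotype that lacks the main E-box activator, and Npas2, Ciart and Nfil3 were among those that rose. Npas2, the partner of Bmal1 that can stand in for Clock, held 21, 23.1 and 35.7 TPM late, against 10.7, 13.3 and 15.7 TPM early and 3.22 TPM in the doubted library. The windows did not overlap, and the difference was 1.14 ± 0.26 (adjusted p = 0.00909). Ciart, which encodes the repressor Chrono, held 11.4, 13.5 and 18.9 TPM late, against 3.65, 4.64 and 6.97 TPM early, with 16.3 TPM in the doubted library. Its difference was 1.13 ± 0.24 with all libraries (adjusted p = 0.00475) and 1.32 ± 0.19 without the doubted one (adjusted p = 4.91e-05), where the windows did not overlap. Nfil3, a repressor of D-box genes, rose less (difference 0.44 ± 0.12, adjusted p = 0.0267).

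Without the doubted library 4 more clock genes rose: Arntl (0.44 ± 0.13, adjusted p = 0.0245), the repressors Per3 (0.48 ± 0.12, adjusted p = 0.0106) and Bhlhe40 (0.68 ± 0.20, adjusted p = 0.0229), and the output factor Dbp (0.30 ± 0.077, adjusted p = 0.0108). Residual Arntl reads stood at 4.39, 5.13 and 6.22 TPM late, against 2.89, 3.51 and 4.28 TPM early, and the deleted part of the gene is not given in the sources used here. Clock, the Per1 and Per2 repressors, both Cry genes, Nr1d1, Nr1d2, Tef and the 7 tested kinase and ligase genes of the clock passed in neither run. Per2 held 7.31, 8.54 and 12.4 TPM late, against 4.68, 6.49 and 6.85 TPM early, windows that did not overlap, but missed the threshold (difference 0.55 ± 0.18, adjusted p = 0.0905). Nr1d1 held 3.01, 4.83 and 5.05 TPM late, against 2.80, 4.71 and 5.51 TPM early, so its windows overlapped (difference without the doubted library -0.02 ± 0.17, adjusted p = 0.972). Apc itself held 10.04, 13.2 and 22.6 TPM late, against 9.73, 15.3 and 17.4 TPM early, and did not pass (difference 0.0061 ± 0.23, adjusted p = 0.997). The series spans less than 1 full cycle, so a rise and the upstroke of a rhythm cannot be told apart. Arntl2, a paralog of Arntl, ran at 9.28 to 20.9 TPM over the 21 libraries, against 0.41 to 1.39 TPM in Bmal1-null and 0.51 to 1.67 TPM in control organoids, with 12.1 to 27.1 TPM in Apc-min organoids. Clock repressors also rose in Apc-min organoids, 4 of 7 without the doubted library (median 0.50). The count was 3 of 7 in Apc-min Bmal1-null organoids without theirs (median 0.48). Activators gave 1 of 4 against 2 (medians 0.36 and 0.33), and output factors 1 of 3 against 2 (0.40 and 0.30). Between these genotypes limma called 0 differences among these repressors, activators and output factors (0 without adjustment). For Bmal1-null organoids it called 0 of 7 repressors (2 without adjustment, median 0.12).

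**Figure D1:**
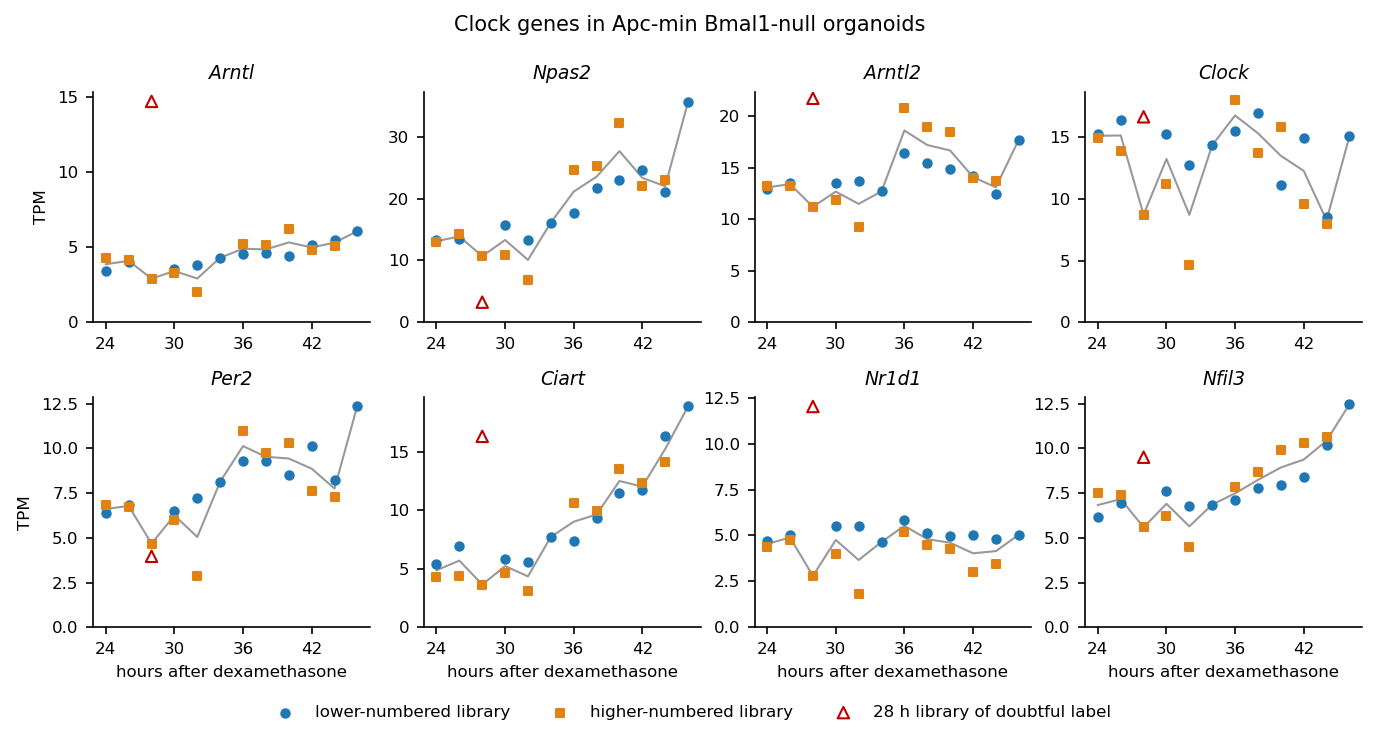
TPM of 8 clock genes in each Apc-min Bmal1-null library (vertical axes) against hours after dexamethasone (horizontal axes); circles are the 12 lower-numbered and squares the 10 higher-numbered libraries, the open triangle is the doubted 28 h library, and the line joins the mean of the others at each time. Npas2 and Ciart sit higher at 40 to 46 h than at 24 to 30 h, and the triangle leaves the course of the other libraries for Arntl, Npas2, Ciart and Nr1d1.

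Ciart is shown with its promoter because it rose late in a genotype without Bmal1 and carries E-boxes. The stretch lies at chr3:95882259-95882353 on the minus strand (RefSeq, GRCm38.p6), just before the start of transcription, and capitals mark CACGTG, which reads the same on both strands.
Ciart: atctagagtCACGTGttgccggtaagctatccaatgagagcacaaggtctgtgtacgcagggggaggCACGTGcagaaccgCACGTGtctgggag
The motif occurs 3 times there. In the 250 bases before the start, CACGTG was found in 4 of 6 clock repressor genes with a promoter in the table, in 1 of 4 output factors, in 0 of 4 activators and in 0 of 4 nuclear receptors of the clock, against 6.86% of all 27025 genes with a promoter there. Npas2, which also rose, is among the genes without a match in this window.

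Genes of glycolysis and the hypoxia response gave some of the largest rises. Of 24 tested genes 10 rose and 0 fell with all libraries (median 0.62), and 22 of 23 rose without the doubted library (median 0.80). Bnip3, a HIF target whose product marks mitochondria for removal, held 35.3, 61.8 and 85.4 TPM late, against 1.89, 2.39 and 16.6 TPM early, and 268 TPM in the doubted library. Its difference was 3.09 ± 0.77 with all libraries (adjusted p = 0.0159) and 3.84 ± 0.48 without it (adjusted p = 1.67e-05). Slc16a3, the lactate exporter MCT4, is not on the list and had the largest rise of all; it held 27.4, 50.2 and 71.6 TPM late, against 0.33, 0.4 and 16.6 TPM early, with 123 TPM in the doubted library (difference 3.803 ± 0.86, adjusted p = 0.00806). Among the other early libraries 26 h replicate 2 was the highest, with 16.6 TPM of Bnip3 and 16.6 TPM of Slc16a3, and the late values did not overlap these early ones. Ankrd37, another HIF target, reached 27.5, 48.7 and 61.7 TPM late, against 3.01, 4.78 and 18.2 TPM early (difference 2.35 ± 0.48, adjusted p = 0.00375). Vegfa, which encodes the angiogenic growth factor, reached 26.5, 39.4 and 61.95 TPM late, against 5.26, 10.04 and 12.1 TPM early, and 134 TPM in the doubted library (difference 1.54 ± 0.46, adjusted p = 0.0489). Egln3, the oxygen-sensing hydroxylase PHD3 that HIF induces, passed only without the doubted library, which held 371 TPM (difference 2.28 ± 0.32, adjusted p = 5.47e-05). Among enzymes, Pdk1, which keeps pyruvate out of mitochondria, had a difference of 1.46, Pfkl 0.94, Tpi1 0.60, Ldha 0.52 and Hk2 0.47 with all libraries (adjusted p = 0.00412 to 0.0343). Car9 and Ndrg1, further HIF targets, rose by 1.22 and 1.76 on the same scale.

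The doubted 28 h library was the highest of the early window for every one of the 10 risen genes, and its values stood above the late median for 9 of them, all but Car9. Fitted alone, the higher-numbered set gave 0 of 23 calls in limma (19 at an unadjusted p under 0.05, median 0.87) and the lower-numbered set, which holds the doubted library, 1 of 24 (median 0.40). In Apc-min organoids without their doubted library 23 of 24 rose (median 0.93), in Bmal1-null organoids 2 (median 0.12) and in control organoids 0 (median 0.018, limma, 3 at an unadjusted p under 0.05). The background of rises was 10.2% of genes in Apc-min, 1.88% in Bmal1-null and 0.74% in control organoids. Tested as a difference between genotypes without the doubted libraries, 14 of 24 list genes had a higher value than in Bmal1-null organoids and 0 of 24 than in Apc-min organoids (limma, 1 at an unadjusted p under 0.05 in either direction). The labels give no oxygen, glucose or culture density.

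Promoter stretches of 5 hypoxia-response genes are printed to show the HIF core motif ACGTG, which also lies within CACGTG. It was searched on both strands in the 250 bases before the start, where 13 of 23 list genes with a promoter hold it, against 18.5% of all genes with a promoter. Capitals mark the motif, read as CACGT where it lies on the other strand. The stretches are Bnip3 at chr7:138909592-138909631 (minus strand), Ankrd37 at chr8:46000061-46000100 (minus), Egln3 at chr12:54204080-54204119 (minus), Vegfa at chr17:46025354-46025393 (minus, for 1 of its 2 starts in the table) and Pgk1, the glycolytic phosphoglycerate kinase, at chrX:106186940-106186979 (plus), all in GRCm38.p6 from RefSeq.
Bnip3: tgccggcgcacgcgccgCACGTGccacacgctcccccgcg
Ankrd37: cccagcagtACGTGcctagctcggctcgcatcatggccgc
Egln3: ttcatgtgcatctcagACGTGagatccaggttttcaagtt
Vegfa: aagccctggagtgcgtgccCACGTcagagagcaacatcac
Pgk1: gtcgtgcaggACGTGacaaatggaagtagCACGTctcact
The letters are those of the reference. Pgk1 itself was among the genes that rose only without the doubted library (difference 0.43 ± 0.11, adjusted p = 0.00769).

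Genes of the amino acid response were also among the rises. Of 19 tested ATF4 target genes 9 rose and 0 fell with all libraries (median 0.36), and 11 rose without the doubted one (median 0.32). Trib3, a pseudokinase that dampens the response, held 8.67, 21.5 and 33.7 TPM late, against 1.81, 2.25 and 3.62 TPM early and 20.1 TPM in the doubted library (difference 2.21 ± 0.38, adjusted p = 0.000722). Chac1, which breaks down glutathione, held 11.9, 19.3 and 29.7 TPM late, against 2.68, 3.74 and 4.82 TPM early and 12.8 TPM in the doubted library (difference 1.87 ± 0.30, adjusted p = 0.000371). Both windows overlapped only through the doubted library. Stc2, a secreted glycoprotein, held 33.5, 41.8 and 57.5 TPM late, against 15.4, 17.7 and 19.9 TPM early (difference 1.31 ± 0.18, adjusted p = 0.000121), and Ddit4, an inhibitor of mTORC1, held 218, 293 and 387 TPM late, against 103, 124 and 154 TPM early (difference 1.00 ± 0.25, adjusted p = 0.017). The factors and enzymes had smaller differences: Atf4 differed by 0.31, Atf5 by 0.53, asparagine synthetase Asns by 0.31, and the serine and glycine enzymes Psph and Shmt2 by 0.36 and 0.40 (adjusted p = 0.00243 to 0.0399). Ddit4 is also known as a HIF target. Of 18 genes of the unfolded protein response, another branch that shares ATF4, limma called 0 (3 at an unadjusted p under 0.05, median 0.0013), and without the doubted library 2 did, Xbp1 and Herpud1. In Apc-min organoids without their doubted library 5 of 20 ATF4 genes rose and 1 fell, and rises numbered 2 in Bmal1-null and 0 in control organoids (limma, 1 at an unadjusted p under 0.05). Tested as a difference between genotypes without the doubted libraries, 0 of 20 differed from Apc-min organoids in limma (8 at an unadjusted p under 0.05). Against Bmal1-null organoids 6 of 20 were higher and 0 lower.

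The ATF4 list is shown with TGATGNAA, the letters of the amino acid response element, to set its members against the element they are known for: 4 of 18 list genes with a promoter hold it in the 250 bases before the start on either strand, against 3.91% of all genes with a promoter. Capitals mark it in Chac1 at chr2:119351032-119351071 (plus strand, motif on the other strand) and Asns at chr6:7693215-7693254 (minus strand), GRCm38.p6 from RefSeq.
Chac1: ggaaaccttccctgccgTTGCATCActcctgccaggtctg
Asns: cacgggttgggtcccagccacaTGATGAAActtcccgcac
Chac1 and Asns, which both carry the motif, rose by 1.87 and 0.31 on the log2 scale. The other carriers, Slc7a11 and Vldlr, were not among the 9 list genes that rose with all libraries. No match was found for Trib3, Stc2 or Ddit4, which rose.

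**Figure D2:**
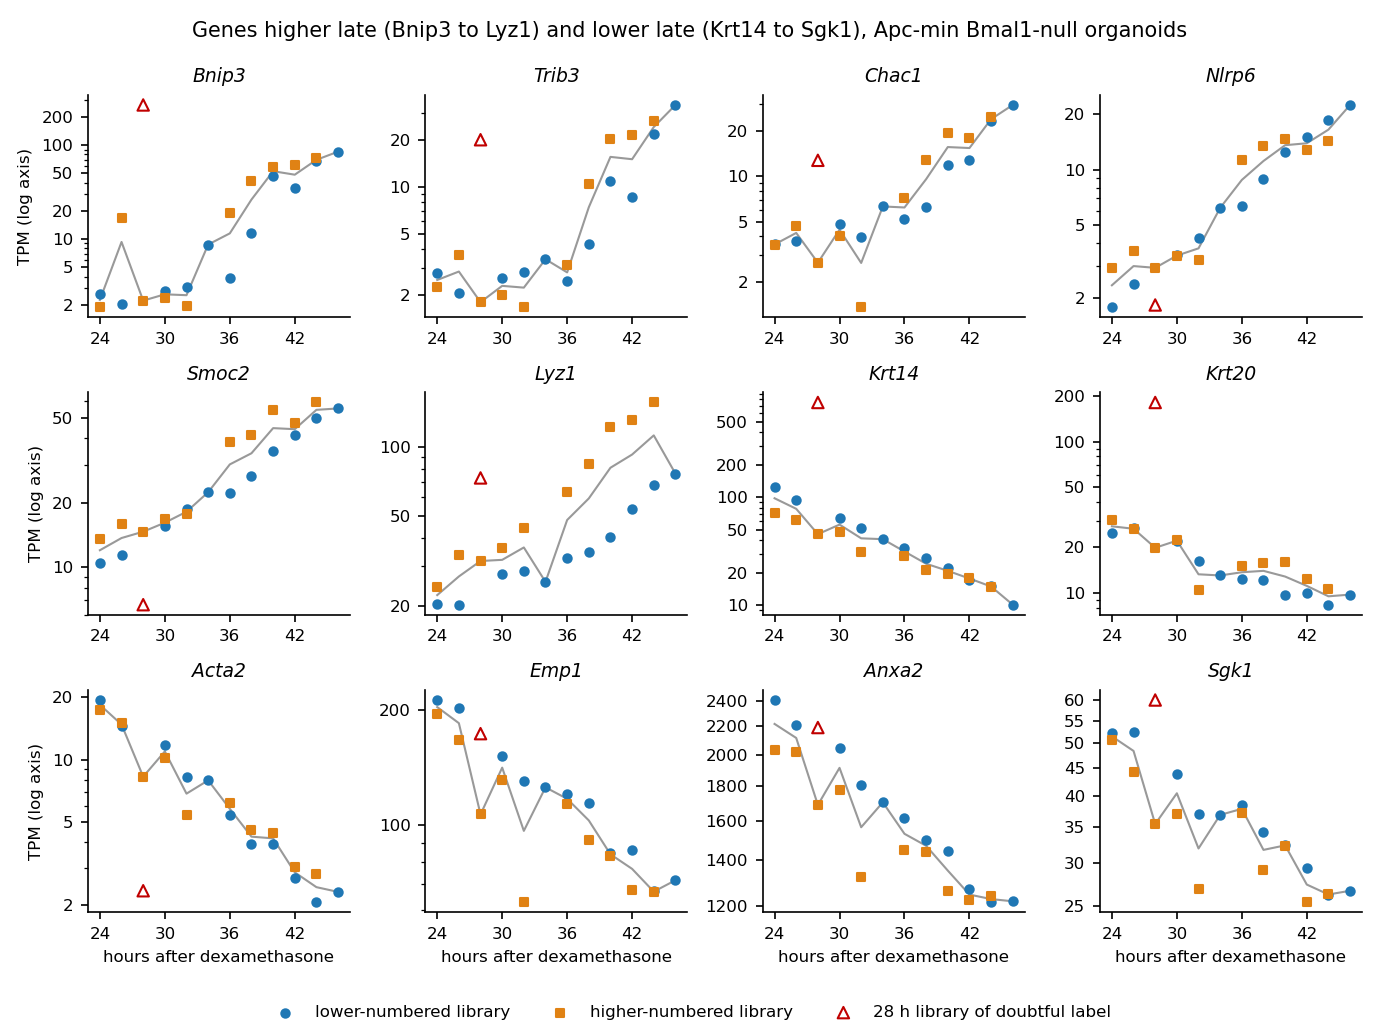
TPM on a log axis against hours after dexamethasone for 6 genes that rose (Bnip3, Trib3, Chac1, Nlrp6, Smoc2, Lyz1) and 6 that fell (Krt14, Krt20, Acta2, Emp1, Anxa2, Sgk1) in Apc-min Bmal1-null organoids, with symbols as for the clock genes. Late values of Nlrp6 and Smoc2 lie above the early ones in both library sets, and the open triangle lies above the other early libraries for Bnip3, Trib3, Krt14 and Krt20 and below them for Acta2.

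Stem cell genes were among the rises. Of 18 tested 5 rose and 0 fell with all libraries (median 0.40) and 7 without the doubted one (median 0.41). Smoc2, a matrix protein of crypt base stem cells, held 34.7, 49.9 and 58.8 TPM late, against 10.5, 14.6 and 16.7 TPM early and 6.67 TPM in the doubted library (difference 1.84 ± 0.19, adjusted p = 1.01e-05). Lgr5, the R-spondin receptor that marks these cells, held 3.01, 4.83 and 7.41 TPM late, against 0.91, 1.17 and 2.02 TPM early, with 7.20 TPM in the doubted library (difference 1.16 ± 0.28, adjusted p = 0.0142). The windows of Smoc2 did not overlap, and those of Lgr5 overlapped only through the doubted library. Lrig1, which restrains EGF receptors, held 115, 119.9 and 143 TPM late, against 62.4, 74.2 and 89.7 TPM early (difference 0.81 ± 0.11, adjusted p = 8.06e-05), and Msi1, an RNA-binding protein, rose by 0.95 and Ascl2, the stem cell transcription factor, by 0.39 (adjusted p = 0.00092 and 0.00176). Olfm4, a common marker of these cells in mice, stayed at or below 0.1 TPM throughout. Of 15 tested Wnt target genes only Lgr5 passed with all libraries (median 0.094); without the doubted library Sp5 (0.39), Sox4 (0.53) and Mmp7 (0.74) did too. In the Notch list the ligands Dll1 (0.63 ± 0.13, adjusted p = 0.00333) and Dll4 (0.70 ± 0.11, adjusted p = 0.000349) were the 2 of 10 genes that rose.

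Secretory lineage genes gave calls in both directions. In the Paneth list 3 of 9 tested genes rose (median 0.66), and 6 without the doubted library (median 1.05). Lyz1, the lysozyme of Paneth cells, held 40.4, 76.3 and 156 TPM late, against 20.4, 27.8 and 36.2 TPM early and 73.1 TPM in the doubted library (difference 1.41 ± 0.31, adjusted p = 0.00593). Reg3g, an antibacterial lectin, held 13.9, 21.1 and 28.9 TPM late, against 4.30, 6.12 and 10.4 TPM early, and its windows did not overlap (difference 1.42 ± 0.20, adjusted p = 0.000121). Its neighbour Reg3b rose by 1.29 ± 0.19 (adjusted p = 0.000198), and the copies of this family share sequence, so the split of reads between them is uncertain. The Paneth defensins were low, with Defa24 at most 7.18 TPM and Defa17 at most 0.81 TPM. Of the goblet list Agr2, a disulfide isomerase needed for mucin, and the membrane mucin Muc13 rose (1.11 ± 0.16 and 1.05 ± 0.21, adjusted p = 0.000158 and 0.00262), 2 of 6 tested, with Muc2 itself near 0. Among hormone genes Nts, which encodes neurotensin, held 3.54, 5.42 and 7.10 TPM late, against 6.77, 8.79 and 12.2 TPM early (difference -0.88 ± 0.17, adjusted p = 0.00223), and Sct, secretin, fell only without the doubted library (-0.73 ± 0.19, adjusted p = 0.0142); only 2 of 15 enteroendocrine genes passed the filter on low values. Ptgs1, a prostaglandin synthase of tuft cells, fell by 0.85 (adjusted p = 0.00533), while the tuft cell factor Pou2f3 and channel Trpm5 stayed at or below 0.67 and 0.45 TPM.

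Some genes of the absorptive surface rose. Of 4 tested brush border enzymes 2 rose with all libraries, Mgam, which digests starch, and alkaline phosphatase Alpi (0.91 ± 0.22 and 0.94 ± 0.25, adjusted p = 0.0131 and 0.0235), and all 4 did without the doubted one. Only 4 of the 13 listed enzymes passed the filter, so this is no count over the whole list. The sodium-proton exchanger Slc9a3 held 7.82, 13.3 and 19.2 TPM late, against 2.70, 4.50 and 4.75 TPM early (difference 1.45 ± 0.24, adjusted p = 0.000538), and the glutamate carrier Slc1a1 and chloride exchanger Slc26a3 rose by 0.88 and 0.60 (adjusted p = 0.00278 and 0.00668), 3 of 11 tested transporters. Mlxipl, the sugar-sensing factor ChREBP, held 6.37, 7.60 and 8.35 TPM late, against 2.65, 3.48 and 4.26 TPM early (difference 1.01 ± 0.15, adjusted p = 0.000245). Its fructose-handling target Khk rose too (0.45, adjusted p = 0.0303), and 3 of 14 tested genes of that list rose in all. In the microvillus list Myo1a and Ush1c rose (0.39 and 0.95), and in the tight junction list Tjp3, Cldn3 and Cldn15 (0.37, 0.44 and 0.93), with no member of either list falling. In the lipid absorption list the only call was Plin2, a lipid droplet coat protein, which fell by 0.65 (adjusted p = 0.000485), 1 of 9 tested.

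Nlrp6, an innate sensor of the intestinal epithelium, had the lowest adjusted p of all genes. It held 12.5, 14.8 and 22.5 TPM late, 3.24, 6.38 and 13.4 TPM at 32 to 38 h and 1.79, 2.92 and 3.61 TPM in all 8 early libraries, so neither window reached the other with the doubted library included (difference 2.15 ± 0.21, adjusted p = 9.01e-06). The Nlrp6 difference was 1.83 in the higher-numbered libraries alone (adjusted p = 0.0619) and 2.43 in the lower-numbered ones alone (adjusted p = 0.000599). Pigr, which carries immunoglobulin A across the epithelium, rose by 1.61 ± 0.40 (adjusted p = 0.0166) and the lymphocyte-attracting Ccl25 by 0.37 ± 0.075 (adjusted p = 0.00325), whereas Ccl20, which attracts dendritic cells, fell by 0.62 (adjusted p = 0.0462). Those were 3 rises and 1 fall among 14 tested genes of the inflammation list. Immune cell genes summed to 6.88 to 11.6 TPM late, against 4.86 to 8.43 TPM early and 20.5 TPM in the doubted library, with 3 of 13 at 0 in every library. Their part in the result was not tested. Further large rises were Aldh1b1, a mitochondrial aldehyde dehydrogenase of crypt progenitors, at 44.3, 59.1 and 65.2 TPM late, against 9.28, 18.9 and 22.4 TPM early (difference 2.00 ± 0.26, adjusted p = 7.3e-05), and Rgcc, a regulator of the cell cycle, at 8.16, 14.6 and 24.5 TPM late, against 1.41, 2.56 and 4.27 TPM early (difference 2.28 ± 0.29, adjusted p = 6.22e-05). The windows of neither gene overlapped, with all 22 libraries. Selenbp1, which oxidizes methanethiol, and Ak4, a mitochondrial adenylate kinase, rose by 1.91 ± 0.45 and 1.87 ± 0.42 (adjusted p = 0.012 and 0.00835), with 94.5 and 41.01 TPM in the doubted library, above every late value.

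Keratins were among the largest falls. Of 18 tested keratin genes, a family taken by symbol after the values were seen, 11 fell and 0 rose with all libraries (median -0.51). Krt14, a keratin of basal squamous cells, held 10.1, 17.3 and 22.4 TPM late, against 45.5, 63.9 and 124 TPM early and 750.4 TPM in the doubted library. The windows did not overlap, and the difference was -2.44 ± 0.40 with all libraries (adjusted p = 0.00056) and -2.01 ± 0.21 without it (adjusted p = 3.3e-06). Krt6a, a keratin of wounded epithelium with close copies, held 4.70, 5.94 and 9.17 TPM late, against 11.9, 21.1 and 30.6 TPM early and 306 TPM in the doubted library. Its difference, with that library included, was -2.02 ± 0.44 (adjusted p = 0.0059). Krt20, which marks differentiated cells of the villus, held 8.37, 9.97 and 16.03 TPM late, against 19.9, 24.9 and 30.3 TPM early, with 182 TPM in the doubted library (difference -1.47 ± 0.31, adjusted p = 0.00531). The abundant simple keratins fell as well: Krt8 held 2655, 2846 and 3159 TPM late, against 3814, 4031 and 4578 TPM early and 2387 TPM in the doubted library (difference -0.42 ± 0.095, adjusted p = 0.00792), Krt19 differed by -0.46, Krt7 by -0.44 and Krt18 by -0.24 (adjusted p = 0.0126, 0.00101 and 0.0261). Only Krt4 rose, and only without the doubted library (0.41 ± 0.13, adjusted p = 0.0328). In Apc-min organoids 6 of 17 keratins fell, in Bmal1-null organoids 4 of 11 and in control organoids 6 of 12, against backgrounds of 3.21, 1.32 and 0.875%.

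Annexins and S100a genes, calcium-binding partners at membranes taken by symbol in the same way, fell with them: 7 of 12 annexins (median -0.41) and 5 of 11 S100a genes (median -0.42), with Anxa13, an enterocyte annexin, as the only rise (0.35 ± 0.10, adjusted p = 0.0487). Anxa2 held 1214, 1239.9 and 1442 TPM late, against 1687, 2032 and 2405 TPM early (difference -0.69 ± 0.074, adjusted p = 1.82e-05), and its partner S100a10 differed by -0.42 ± 0.12 (adjusted p = 0.0358). S100a6 held 4155, 4982 and 5988 TPM late, against 6152, 7623 and 9179.7 TPM early (difference -0.53 ± 0.12, adjusted p = 0.00885). The Anxa2 and S100a6 windows did not overlap in the 22 libraries. The fetal-like list holds Anxa1, Anxa2 and Anxa3, which were its 3 falls of 12 tested genes, and 0 of them rose (median -0.21); without the doubted library Anxa10 and Ereg were among those that fell too. Anxa10, a gastric annexin, held 13.2, 18.8 and 26.3 TPM late, against 32.6, 49.1 and 59.6 TPM early, and 0.56 TPM in the doubted library (difference without it -1.20 ± 0.18, adjusted p = 9.9e-05). Of 12 YAP targets only Ccn1 fell with all libraries (-0.56 ± 0.11, adjusted p = 0.00318), and none of the 12 had a positive difference. The medians of keratins, annexins and S100a genes stayed negative after median-of-ratios scaling (-0.54, -0.44 and -0.46) and in the quantile-normalized table (-0.56, -0.39 and -0.39). In Apc-min organoids without their doubted library 4 of 11 annexins and 2 of 11 S100a genes fell, and 1 annexin rose. Falls numbered 6 of 11 and 6 of 7 in Bmal1-null and 7 of 12 and 2 of 7 in control organoids. Of the fetal-like list 3 of 11, 7 of 9 and 8 of 9 fell in these genotypes (medians -0.16, -0.64 and -0.63). The backgrounds of falls were 3.21, 1.32 and 0.875%.

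Other large falls were in genes of the cytoskeleton, membrane and matrix. Acta2, smooth muscle actin, held 2.06, 2.81 and 4.45 TPM late, against 8.30, 14.5 and 19.4 TPM early and 2.34 TPM in the doubted library (difference -1.59 ± 0.27, adjusted p = 0.000787). Acta1, skeletal muscle actin, fell beside it (-1.34 ± 0.28, adjusted p = 0.00393), and both share long near-identical stretches with the abundant cytoplasmic actins, so their counts are uncertain. The 6 smooth muscle genes summed to 2.36 to 4.85 TPM late, against 8.45 to 20.01 TPM early and 2.60 TPM in the doubted library, nearly all of it Acta2, since Myh11 and Des reached at most 0.06 and 0.14 TPM. The 10 fibroblast genes summed to 0.69 to 2.05 TPM late, against 1.17 to 6.02 TPM early and 8.39 TPM in the doubted library, and their part in the result was not tested. Emp1, an epithelial membrane protein, held 66.8, 71.8 and 85.9 TPM late, against 107, 167 and 212 TPM early (difference -1.12 ± 0.15, adjusted p = 8.06e-05), and its relative Pmp22 fell by 1.32 (adjusted p = 6.22e-05). Mal, a protein of apical transport, held 22.8, 30.1 and 36.8 TPM late, against 43.6, 70.6 and 76.3 TPM early and 132 TPM in the doubted library (difference -1.19 ± 0.17, adjusted p = 0.000168). Cpe, a carboxypeptidase that trims prohormones, Aldh3a1, an aldehyde dehydrogenase, the matrix protein Thbs1 and the TGF-beta feedback gene Pmepa1 had differences of -1.11, -1.07, -1.07 and -1.03 (adjusted p = 0.000121, 0.0121, 0.00816 and 0.000362). Thbs1 was the only one of the 12 named falls whose windows overlapped without the doubted library. Sgk1, a kinase gene that glucocorticoids induce, fell by 0.69 (adjusted p = 0.000256), while the metallothioneins Mt1 and Mt2 of the same list rose by 0.46 and 0.67 (adjusted p = 0.00133 and 0.000703), 2 rises and 1 fall of 12 tested.

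Several programs gave no call with all 22 libraries in limma. These were DNA replication, mitosis, ribosome biogenesis, cytosolic ribosomal proteins, cholesterol synthesis, splicing and the nuclear-encoded respiratory chain. At an unadjusted p under 0.05 the numbers were 0 of 20, 1 of 20, 1 of 18, 0 of 20, 0 of 22, 3 of 20 and 3 of 20 genes in that order. Without the doubted library the splicing genes Srrm2 and Clk1 rose (0.58 and 0.37), as did Uqcrc1 of the respiratory chain (0.14), Rrp9 of ribosome biogenesis fell (-0.24), and the other lists again gave 0 calls in limma (2, 4, 0 and 3 genes of replication, mitosis, ribosomal proteins and cholesterol had an unadjusted p under 0.05). With all libraries the list medians lay between -0.025 and 0.082, close to the 0.022 of all genes. The median of the DNA replication genes was -0.017 without the doubted library, against -0.53 in Apc-min organoids without theirs, where 2 of 20 fell; as a difference between the genotypes 0 of 20 genes passed in limma (7 without adjustment). Of the mitochondrially encoded genes mt-Nd1 rose (0.47 ± 0.13, adjusted p = 0.0336), 1 of 7 tested, and their median was 0.39.

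The remaining lists gave few calls each, and the genes below are named because they passed the test. Over all genes 3.52% rose and 2.32% fell, and single calls are not read as a response of a list. Among genes controlled by NRF2, the factor of oxidative defence, Gstm1 differed by 0.59 and Srxn1 by -0.31, 1 rise and 1 fall of 16, and among PPAR targets Acot1 rose by 1.02 beside the fall of Plin2, of 15 tested. The immediate early factors Junb and Klf6 fell (-0.22 and -0.45), 2 of 14 tested, as did the heat shock gene Hspa1a (-0.29), the p53 target Phlda3 (-0.18) and the histones Hist1h1c and Hist1h2bc (-0.53 and -0.44). Hspa1a, Hist1h2bc and Gstm1 have near-identical copies, which makes their values uncertain. In the epithelial identity list the intestinal factor Cdx1 and Elf3 rose (0.60 and 0.44), and its 4 falls were the keratins Krt8, Krt18, Krt19 and Krt20. Tff1, a gastric trefoil peptide, fell by 0.94 (adjusted p = 0.0218). Of 14 tested interferon response genes limma called 0 (3 at an unadjusted p under 0.05). The 7 endothelial genes summed to 16.7 to 27.1 TPM late, against 14.3 to 20.1 TPM early and 54.9 TPM in the doubted library; Vwf, a clotting factor of that list, rose by 0.54 (adjusted p = 0.0101), and the part of these genes in the result was not tested.

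**Figure D3:**
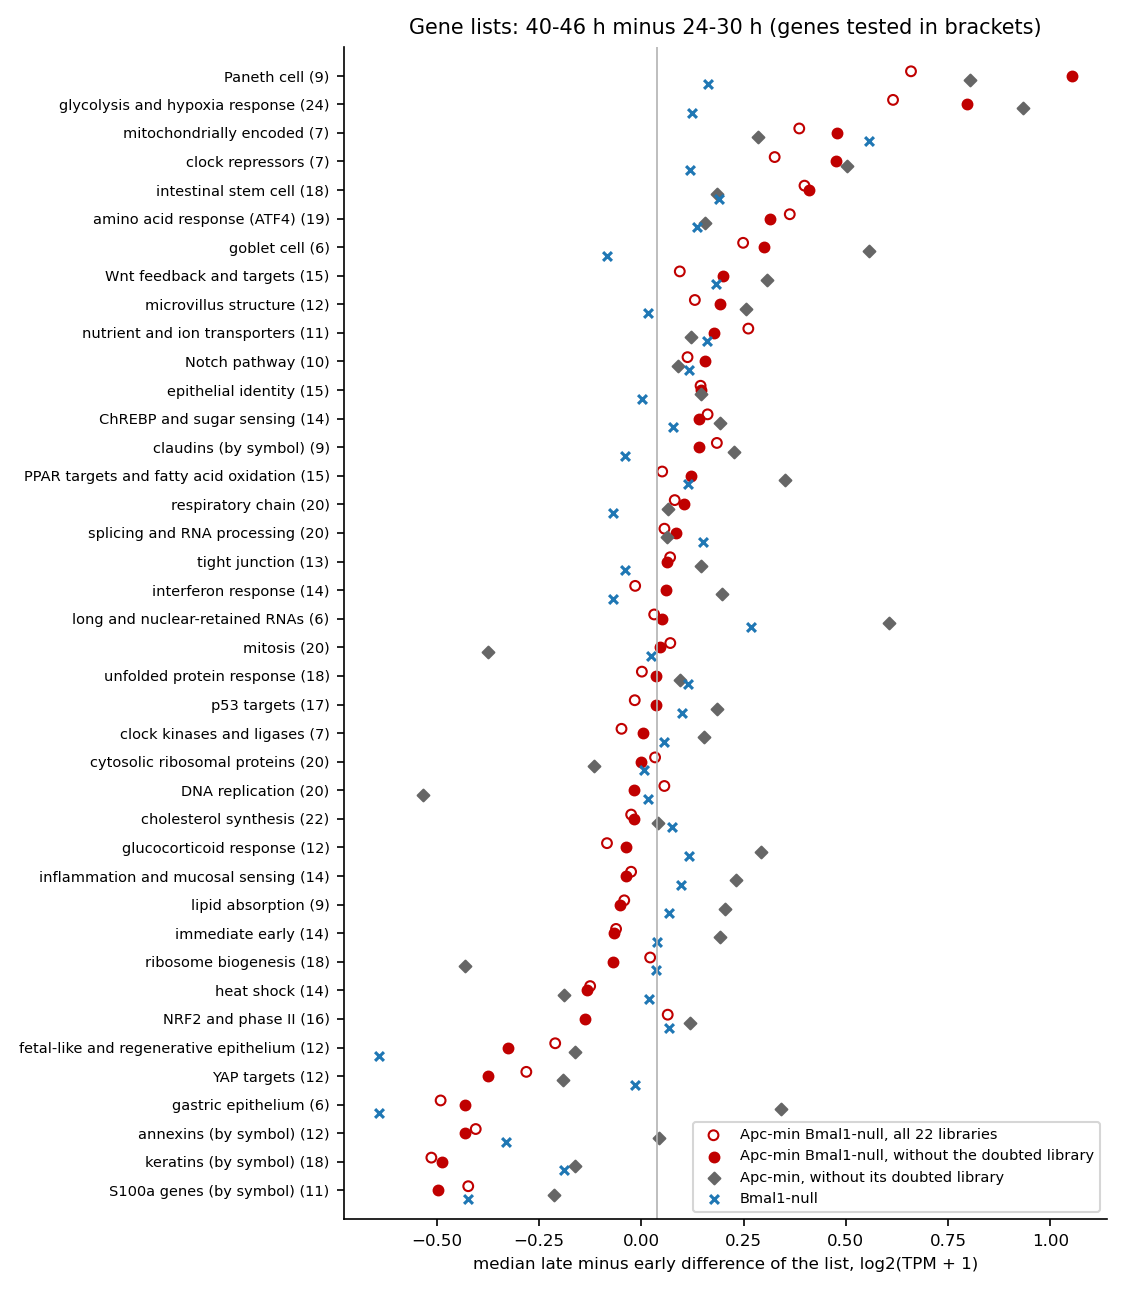
Median late minus early difference of the tested genes of each list (horizontal axis, log2(TPM + 1)) in Apc-min Bmal1-null organoids with all 22 libraries and without the doubted one, in Apc-min organoids without their doubted library and in Bmal1-null organoids; lists with 5 or more tested genes are shown. Hypoxia-response, Paneth and amino acid response genes lie on the right for Apc-min Bmal1-null organoids, at 0.62, 0.66 and 0.36, and keratins, S100a genes and annexins on the left, at -0.51, -0.42 and -0.41.

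Change across the whole day was tested with a line and a cosine. A straight line over the 12 time points gave 686 genes that rose (5.62%) and 344 that fell (2.82%) with all libraries, and 1515 (12.5%) and 610 (5.03%) without the doubted one. Median-of-ratios scaling gave 741 up and 708 down and the quantile-normalized values 836 up and 743 down. By adjusted p the leading 10 genes, among those with a line of 1.5-fold or more, were 4 rises, Nlrp6, Smoc2, the carboxylesterase Ces2e and the phosphatase inhibitor Ppp1r1b, and 6 falls, Anxa2, Pmp22, the actin-severing Gsn, the 14-3-3 gene Sfn, Tent5b and Tinagl1. Fitted from 24 to 46 h, Nlrp6 rose 8.05-fold, Smoc2 5.76-fold, Ces2e 2.84-fold and Ppp1r1b 1.73-fold on the TPM + 1 scale (adjusted p = 2.14e-09 to 4.49e-07). Gsn held 79.2, 87.9 and 108 TPM late, against 124.8, 165 and 199 TPM early, and Sfn 76.3, 80.05 and 102 TPM late, against 131, 141 and 166 TPM early, with no overlap of windows. Compared late against early in the lower-numbered set alone all 10 passed, and in the smaller higher-numbered set alone 5 did (Smoc2, Sfn, Tinagl1, Anxa2 and Pmp22). Among genes that changed 2-fold or more without the doubted library, the middle window of 32 to 38 h had covered a median of 36.3% of the change for the 82 that rose and 56.6% for the 21 that fell. The middle value lay between the outer windows for all 82 rises and for 20 of the 21 falls.

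A 24 h cosine gave 316 genes (2.59%) with all libraries and 1444 (11.9%) without the doubted one. Of the 316, 306 also passed the straight line, and 235 (74.4%) had their fitted peak at 40 to 44 h. The 10 of lowest adjusted p with a swing of 1.5-fold or more were Mlxipl, Nlrp6, Smoc2, Lzts3, Stc2, Acss1, St6galnac2, Sept5, Ltb4r2 and Slc9a3. Each of these was also higher late than early without overlap of the windows, for example Acss1, a mitochondrial enzyme that activates acetate, with 17.2, 19.7 and 24.3 TPM late, against 6.95, 9.25 and 11.1 TPM early. Their fitted peaks ran from 40.4 to 41.6 h. With a linear term of time added to the model, the cosine gave 0 calls in limma (286 at unadjusted p under 0.05). Leaving out the 40 h replicate 2 library gave 151 cosine calls, and leaving out 1 of 6 others (replicate 1 at 26 or 42 h, replicate 2 at 28 or 38 h, or either one at 44 h) gave 194 to 204. Among clock genes Npas2, Ciart, Per2 and Nfil3 passed the cosine (adjusted p = 0.00913, 0.0391, 0.0439 and 0.0471), with fitted peaks at 40.7 to 43.2 h, and these 4 passed the straight line too.

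At each time the higher-numbered and the lower-numbered library form sets of 10 and 12. Compared within time points in limma, 27 of 12206 genes were at least 2-fold higher in the higher-numbered set (0.221%) and 18 lower (0.147%). Xist, the RNA that silences an X chromosome in female cells, held 41.8, 61.95 and 88.4 TPM in the higher-numbered libraries, against 0, 0 and 0.1 TPM in the lower-numbered ones. The Y-linked Eif2s3y held 0, 0.01 and 0.15 TPM in the higher-numbered libraries, against 53.1, 56.3 and 64.7 TPM in the lower-numbered ones, and Ddx3y, Kdm5d and Uty followed the same split. The sex of the mice is not given in the labels. Autosomal genes also differed: the YAP-regulated Ankrd1 held 11.7, 13.4 and 16.8 TPM in the higher-numbered libraries, against 2.00, 3.60 and 5.45 TPM in the lower-numbered ones, and the cornified envelope gene Sprr1a 84.2, 123 and 199 TPM in the higher-numbered libraries, against 36.9, 47.5 and 61.2 TPM in the lower-numbered ones. Vsig2, Clec2f, Gkn3, Tm4sf4, Tmem45a and Hmgcll1 were the other named genes higher in the higher-numbered set, with Gm27927. Higher in the lower-numbered set were Mptx2, a pentraxin of Paneth cells, with 2.66, 4.04 and 6.33 TPM in the higher-numbered libraries, against 7.03, 12.2 and 19.6 TPM in the lower-numbered ones, and Mid1, Tceal8, Gm43305, Gm29650 and Gm8909. Both sets are spread over all windows, and adding the set as a term gave 845 late against early calls, 512 higher and 333 lower. Fitted alone, the lower-numbered set gave 610 calls (303 higher, 307 lower) and the higher-numbered set, with 3 late and 4 early libraries, 40 (23 higher, 17 lower).

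**Figure D4:**
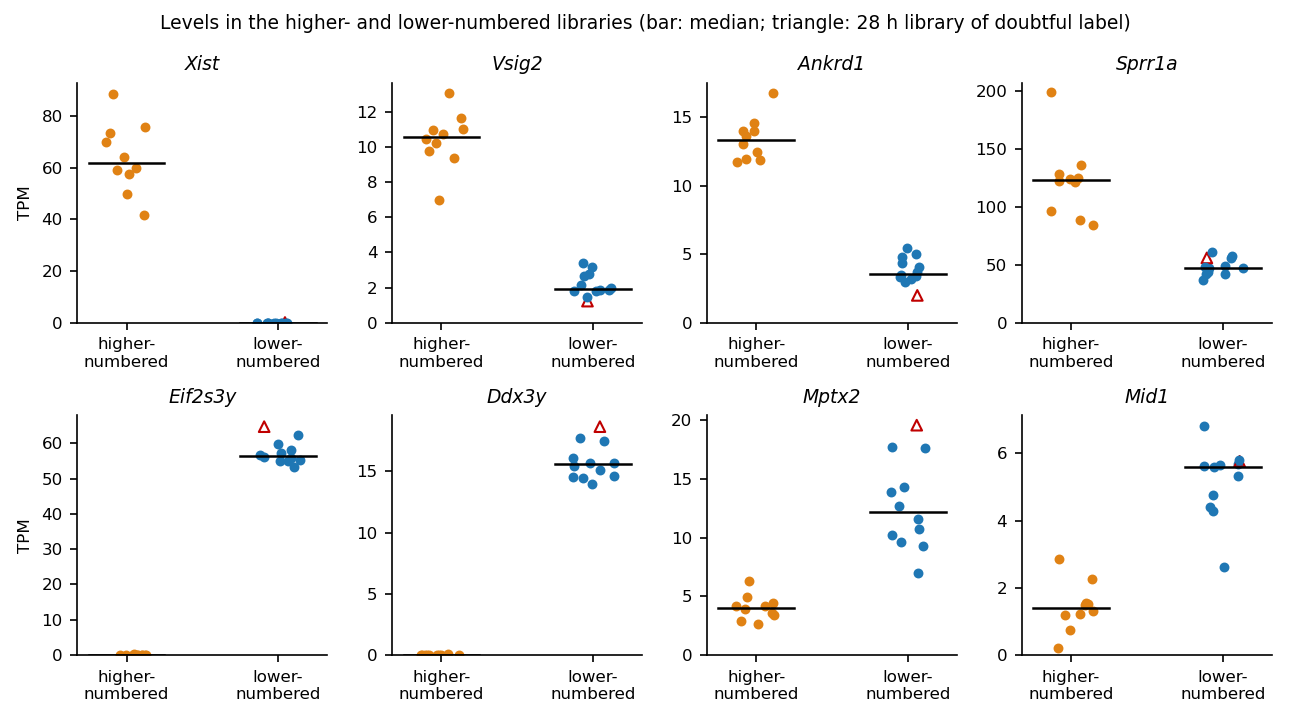
TPM of 8 genes that differed between the 10 higher-numbered and the 12 lower-numbered Apc-min Bmal1-null libraries, each point a library. Xist, Vsig2, Ankrd1 and Sprr1a lie higher in the higher-numbered set, and Eif2s3y, Ddx3y, Mptx2 and Mid1 lie higher in the lower-numbered set, with a small overlap for Mid1.

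The late minus early difference was then compared with that of Apc-min organoids, which share the Apc allele and the medium and have Bmal1. With all libraries 8 of 12885 genes differed, 3 higher (0.0233%) and 5 lower (0.0388%), and without the doubted library of each genotype 3 of 12914 were higher (0.0232%) and 13 lower (0.101%). With the library set as a term the number was 1053, 576 higher and 477 lower. The calls by gene list against Apc-min organoids given above come from the fit without this term and were not counted with it. Leaving out 1 Apc-min Bmal1-null library gave 7 to 22 calls, with 22 when the 32 h replicate 2 library was left out, 17 for the 28 h replicate 2 and 13 for the 30 h replicate 2 library. Apc-min libraries were not left out in turn. Hsd17b13, a lipid droplet dehydrogenase, held 1.96, 3.65 and 5.64 TPM late and 0.23, 0.54 and 0.96 TPM early in Apc-min Bmal1-null organoids, against 0.07, 0.38 and 0.54 TPM late and 0.04, 0.13 and 0.22 TPM early in Apc-min organoids, both without the doubted libraries. The difference between the differences was 1.39 ± 0.21 with all libraries (adjusted p = 0.000963). With a pseudocount of 0.1 limma called 0 genes higher and 5 lower. At a mean of 5 TPM or more it called 0 higher and 4 lower. Hsd17b13 thus was called in neither of these runs. The mesenchymal filament gene Vim, at low level, had a late minus early difference of -0.56 in Apc-min Bmal1-null and 0.96 in Apc-min organoids without the doubted libraries (difference -1.51 ± 0.30, adjusted p = 0.0121, and -1.73 ± 0.32 with all libraries). Anxa5 differed by -0.55 ± 0.11 with all libraries (adjusted p = 0.00975) and by -0.51 ± 0.11 without the doubted ones (adjusted p = 0.0234), where the late minus early values were -0.53 in Apc-min Bmal1-null and -0.014 in Apc-min organoids. The others, with all libraries, were Ms4a18 (1.17 ± 0.22) and Reg1 (0.87 ± 0.18) on the higher side and Igfbp2 (-0.98 ± 0.16), Pxdc1 (-0.77 ± 0.13) and Gstp3 (-0.87 ± 0.15) on the lower. Without the doubted libraries Igfbp2, Pxdc1 and Gstp3 changed little in Apc-min Bmal1-null organoids (late minus early -0.020, -0.19 and -0.11). In Apc-min organoids their values were 0.89, 0.54 and 0.66. Igfbp2 reached at most 0.32 TPM in the early and late Apc-min Bmal1-null libraries. The largest hypoxia-response rises were not among them: Bnip3 had 3.84 in Apc-min Bmal1-null and 3.15 in Apc-min organoids, both without the doubted libraries (adjusted p of the difference 0.853, with a size of 0.69 ± 0.97).

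Against Bmal1-null organoids, which share the Bmal1 allele, the genotypes differ in Apc, medium and library series together, and these cannot be told apart. There 312 of 13404 genes had a higher late minus early difference (2.33%) and 201 a lower one (1.5%), and without the doubted library 617 (4.62%) and 326 (2.44%) of 13362. Median-of-ratios scaling gave 414 on each side, and a pseudocount of 0.1 gave 301 and 133. Nlrp6 held 12.5, 14.8 and 22.5 TPM late and 1.79, 2.93 and 3.61 TPM early in Apc-min Bmal1-null organoids, against 181, 210.7 and 276 TPM late and 152, 218 and 251 TPM early in Bmal1-null organoids (difference without the doubted library 2.01 ± 0.26, adjusted p = 1.07e-06). In the same run Aldh1b1 and Reg3g rose in Apc-min Bmal1-null organoids, with late minus early values of 1.76 and 1.52, against -0.059 and -0.21 in Bmal1-null organoids (differences 1.82 ± 0.19 and 1.73 ± 0.20, adjusted p = 1.78e-08 and 2.49e-07). Smoc2, Noxo1, an organizer of the NADPH oxidase of the gut, and Ppp1r1b were also on the higher side among the 10 of lowest adjusted p with all libraries, by 1.53 ± 0.20, 1.15 ± 0.15 and 0.62 ± 0.085. Ly6a, a marker of regenerating epithelium, was on the higher side too, with late minus early values of -0.20 in Apc-min Bmal1-null and -1.02 in Bmal1-null organoids without the doubted library (difference 0.82 ± 0.10, adjusted p = 9.45e-07). Cpe, Tmem171 and BB123696 were on the lower side with all libraries (-1.19 ± 0.16, -0.69 ± 0.10 and -0.66 ± 0.09). BB123696 reached at most 0.03 TPM in the early and late Apc-min Bmal1-null libraries, and its difference came from a rise of 0.66 in Bmal1-null organoids. Among clock genes Ciart had a higher difference than in Bmal1-null organoids without the doubted library, by 1.08 (adjusted p = 0.000466). The comparisons with Apc-min and Bmal1-null organoids share the Apc-min Bmal1-null libraries, so they are not independent of each other.

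**Figure D5:**
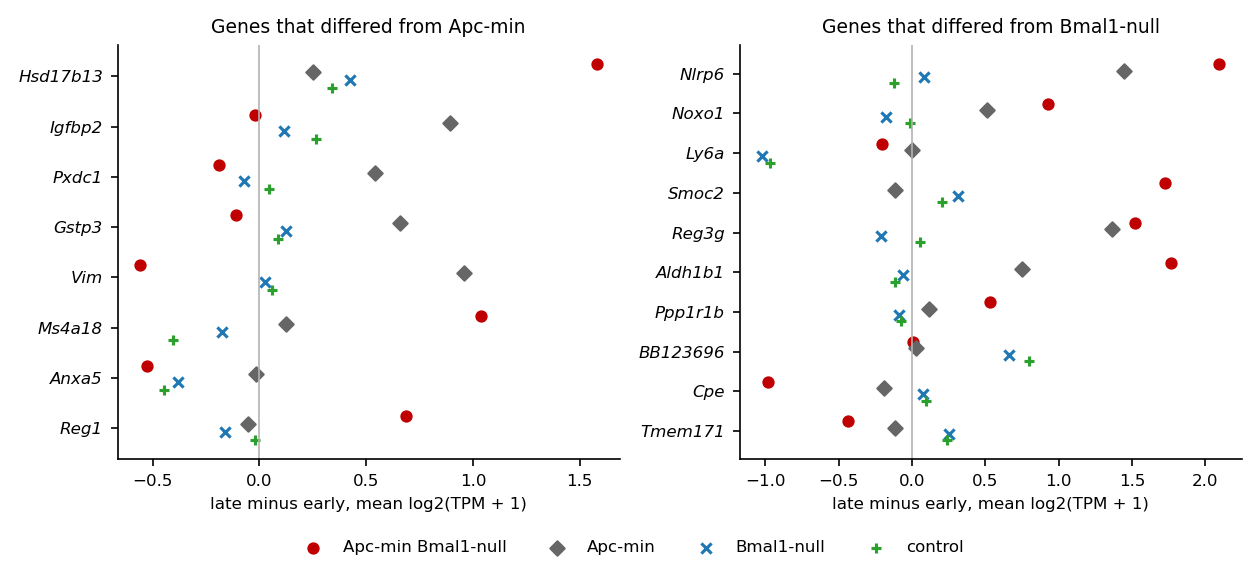
Late minus early difference (log2(TPM + 1)) in each genotype, without the doubted libraries, for the 8 genes that differed between Apc-min Bmal1-null and Apc-min organoids and the 10 of lowest adjusted p between Apc-min Bmal1-null and Bmal1-null organoids. Nlrp6 lies at 2.09 in Apc-min Bmal1-null, 1.44 in Apc-min, 0.08 in Bmal1-null and -0.12 in control organoids.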

How the data were processed

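Gene-level TPM values were deposited by the authors; per the submitters' processing notes reads were processed with STAR 2.5, RSEM 1.3.0 and GRCm38, and per the labels' protocols they were 101-base single reads. The authors' quantile-normalized TPM table of this genotype served as an alternative. Read counts and percent of reads unmapped as too short come from the deposited alignment summary, per the file headers.
The members and gene lists were chosen with earlier results of these data known. Genes averaging at least 1 TPM were tested in limma 3.58.1 (R 4.3.3, variance trend) on log2(TPM + 1), a scale that understates changes of low genes. One fit held early (24 to 30 h), middle (32 to 38 h) and late (40 to 46 h) windows. Other fits held a straight line, a 24 h cosine, the window difference between genotypes and the library set within time points. P-values were adjusted by Benjamini-Hochberg over all genes tested, with a threshold of 0.05, and the fits were tested on simulated data. Tables were prepared in Python 3.11.15.
Named genes were Arntl, Apc and the listed clock genes, the 12 largest rises and 12 largest falls with 5 TPM or more, the 10 of lowest adjusted p for line, cosine (1.5-fold or more) and each genotype difference, the 10 largest per direction between sets, and 4 members per list. Further list members are named because they passed the test, chosen after their values were seen. Alternatives were other filters, pseudocounts, scalings and libraries left out. No libraries held identical values.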

Additional observations from a re-analysis of the deposited data

Results flagged for a closer look

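In 24 of 98 windows of the named genes 1 library lay far from the others, by Dixon's test of the gap at its 95% limit; chance gives about 5%. The 28 h replicate 1 library was the distant one in 23 of the 24, all in the early window. It was the highest for the clock genes Arntl (14.7 TPM), Arntl2 (21.8 TPM), Per3 (5.88 TPM), Ciart (16.3 TPM), Bhlhe40 (184 TPM), Nr1d1 (12.02 TPM), Nr1d2 (14.7 TPM) and Btrc (12.8 TPM), and the lowest for Npas2 (3.22 TPM) and Cry1 (19.3 TPM). Among genes that rose it was the highest for Bnip3 (268 TPM), Trib3 (20.1 TPM), Selenbp1 (94.5 TPM), Chac1 (12.8 TPM), Ak4 (41.01 TPM) and Ndrg1 (177 TPM). Among genes that fell it was the highest for Krt14 (750.4 TPM), Krt6a (306 TPM), Krt20 (182 TPM), Cpe (37.2 TPM) and Aldh3a1 (275 TPM), and the lowest for Acta2 (2.34 TPM) and Acta1 (3.36 TPM). The remaining window was that of the phosphatase gene Ppp1ca, where the 28 h replicate 2 library was the lowest (574 TPM).

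The late minus early difference differed between genotypes in limma's test of the difference itself, with all libraries. Against Apc-min organoids 8 genes passed: Hsd17b13 (1.39), Ms4a18 (1.17), Reg1 (0.87), Igfbp2 (-0.98), Pxdc1 (-0.77), Gstp3 (-0.87), Vim (-1.73) and Anxa5 (-0.55), as Apc-min Bmal1-null minus Apc-min on the log2 scale. Without the doubted libraries all but Reg1 passed. Against Bmal1-null organoids 513 genes passed, and the 10 of lowest adjusted p were Nlrp6 (2.07), Aldh1b1 (2.06), Reg3g (1.63), Smoc2 (1.53), Noxo1 (1.15), Ly6a (0.79), Ppp1r1b (0.62), BB123696 (-0.66), Tmem171 (-0.69) and Cpe (-1.19).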

How the results depend on the processing

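No named gene that passed the test reversed its direction under the alternatives run. Genes that did not pass, such as Apc and several clock kinases, changed sign under some of them. Counts of calls also depended strongly on which libraries entered; the causes were not tested. For late against early (713 genes) the count was 1625 without the doubted library, 1143 after median-of-ratios scaling, 1256 in the quantile-normalized table, 40 in the higher-numbered set alone (in the lower-numbered one 303 higher and 307 lower) and 2546 with each library's slope on gene length in the model. Leaving out 1 library gave 499 to 1625. For the straight line (1030) it was 2125 without the doubted library, 1579 in the quantile-normalized table, 303 in the higher-numbered set alone and 3011 with the slope, and 756 to 2125 with 1 library left out. For the cosine (316) it was 1444 without the doubted library, 81 in the higher-numbered set alone, 1208 with the slope and 151 to 1444 with 1 library left out. The cosine gave 0 calls in limma in the lower-numbered set alone (1045 at an unadjusted p under 0.05), with time point means as units (1485) and with a linear term of time added (286).

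Differences from Apc-min organoids (8) numbered 5 with a pseudocount of 0.1, 4 at a mean of 5 TPM or more, 16 without the doubted libraries, 33 after median-of-ratios scaling and 7 to 22 with 1 library left out. Differences from Bmal1-null organoids (513) numbered 943 without the doubted library, 828 after median-of-ratios scaling and 390 to 943 with 1 Apc-min Bmal1-null library left out. Between library sets (45) there were 72 with a pseudocount of 0.1, 19 at a mean of 5 TPM or more and 40 to 57 with 1 library left out; the quantile-normalized table was not run there, since its headers give only the time.

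The replicate block, with the library set as a term, gave 845 late against early calls, 1150 for the line, 437 for the cosine and 629 differences from Bmal1-null organoids, all within 1.5 times, and 1053 differences from Apc-min organoids in place of 8, with 576 higher and 477 lower in place of 3 and 5.

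Other runs were chosen after seeing the data. Without the 28 h and 32 h replicate 2 libraries late against early gave 1553 calls, the line 1807 and the cosine 411. Without those and the doubted library the counts were 3353, 3533 and 1750. Without the doubted library they were 1975, 2425 and 1803 with the set as a term, 4893, 5293 and 3724 with the slope, 40, 303 and 81 in the higher-numbered set alone, and 2447, 3042 and 0 in the lower-numbered set alone, where 2121 genes had an unadjusted cosine p under 0.05 in limma.

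With 7 or 8 libraries a window, late against early differences near the spread between libraries were not detectable, and TPM carries no read counts per gene, so no counting error is given.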
